A study of Mus musculus with 2 samples.

Results

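The genes described here are Grik1, Grik2, Grik3, Grik4 and Grik5, which encode the subunits of the kainate receptors, and Grid1, which encodes the delta receptor subunit GluD1. They were taken by name, and all 6 were among the 25556 genes of the count table. Nuclei came from the brainstem of 1 WT and 1 HET mouse, both female, on a C57Bl6 background and at postnatal day 41. The HET mouse carried the Scn1a missense change A1783V on 1 allele (Scn1aA1783V/WT), a loss-of-function knock-in from a cross of floxed Scn1a males and Sox2-Cre females. Sox2-Cre acts in the early embryo, so the change was global and not limited to a brain cell type. The WT mouse carried intact Scn1a and came from littermates of such crosses, and neither animal was treated. The animals model Dravet syndrome, a childhood epilepsy, and the comparison asked how the brainstem transcriptome of a HET animal past the period of high mortality differed from that of a WT animal.

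Kainate receptors are tetrameric cation channels opened by glutamate. Grik1, Grik2 and Grik3 encode the low-affinity subunits GluK1, GluK2 and GluK3, which form working channels on their own. Grik4 and Grik5 encode the high-affinity subunits GluK4 and GluK5, which reach the membrane and conduct only together with a low-affinity subunit. The receptors sit on both sides of synapses in the hindbrain, where they shape transmitter release and give slow synaptic currents. GluD1 has the same architecture but is not opened by glutamate; it binds secreted cerebellins and, through these, presynaptic neurexins, and so works as a synapse organizer.

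The relation among the genes is visible in their coding sequences, which were read from the mouse GENCODE vM21 transcripts (GRCm38, the assembly also called mm10). The stretch of 60 bases whose encoded amino acids were most alike across the 6 genes lies where the third membrane segment, the channel gate, is encoded. It is printed 5′ to 3′ to show how far the families have parted. Capitals mark bases that differ from the most frequent base at that position of the alignment, the first in the alphabet where bases tie.
Grik1: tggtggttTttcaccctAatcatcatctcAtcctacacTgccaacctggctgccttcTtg
Grik2: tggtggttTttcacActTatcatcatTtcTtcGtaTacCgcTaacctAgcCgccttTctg
Grik3: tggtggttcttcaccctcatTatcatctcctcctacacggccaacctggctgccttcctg
Grik4: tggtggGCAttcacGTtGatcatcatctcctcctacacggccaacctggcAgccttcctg
Grik5: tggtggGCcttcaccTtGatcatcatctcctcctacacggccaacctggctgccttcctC
Grid1: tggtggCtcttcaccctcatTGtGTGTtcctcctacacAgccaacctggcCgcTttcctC
In this stretch 37 of the 60 positions held the same base in all 6 genes. The kainate genes had from 1 capital (Grik3) to 12 (Grik2), and Grid1 had 11. Over the whole coding sequence Grik2 and Grik3 were identical at 72.3% of aligned bases, Grik1 and Grik2 at 71.0%, and Grik4 and Grik5 at 69.4%. Between the low-affinity and the high-affinity subunits identity ran from 50.5% to 55.8%, and Grid1 matched the kainate genes at 42.5% to 46.2%. The longest run that the spliced transcripts of any pair of members shared was 61 bases, between Grik3 and Grid1.

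All the members but Grik5 are very long genes, which matters for nuclear RNA because most of a nuclear transcript is intron. Grik1 lies on the minus strand of chromosome 16 (chr16:87895900-88290265, 394 kb), and its gate stretch falls in exon 14 (chr16:87936006-87936065). Grik2 lies on the minus strand of chromosome 10 (chr10:49094833-49788766, 694 kb), with the stretch in exon 14 (chr10:49240687-49240746). Grik3 lies on the plus strand of chromosome 4 (chr4:125490700-125714173, 223 kb), with the stretch in exon 13 (chr4:125694012-125694071). Grik4 lies on the minus strand of chromosome 9 (chr9:42518135-42944493, 426 kb) and Grik5 on the minus strand of chromosome 7 (chr7:25009849-25072346, 62.5 kb). In these high-affinity genes an intron splits the stretch, which runs from exon 16 into exon 17 of Grik4 (chr9:42543866-42547568) and from exon 15 into exon 16 of Grik5 (chr7:25015916-25022442). Grid1 lies on the plus strand of chromosome 14 (chr14:34820108-35583379, 763 kb), with the stretch in exon 12 (chr14:35452311-35452370). Of the annotated genes that overlap a member, the counted ones were Gm26543 (171 UMIs in WT, 233 in HET) and Gm47018 (60 and 77), both inside Grik2 on the same strand, against 78101 and 83677 UMIs of Grik2 itself.

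After the authors' filters the WT library held 9259 nuclei and 70301390 unique molecular identifiers (UMIs, each 1 captured RNA molecule), with a median of 5456 UMIs a nucleus. The HET library held 9022 nuclei, 66176778 UMIs and a median of 5646. With 1 library a genotype there was no replicate, so no p-value is given; intervals are 95% intervals of counting error only, and the difference between the genotypes cannot be told apart from that between 2 animals or 2 library preparations. Scn1a, whose mRNA a missense knock-in need not alter, stood at 380.2 CPM (UMIs per 1000000 UMIs of the library or cluster) in WT and 420.4 in HET, and the changed base is not read in these counts. The deposited clusters were used as named: neuron.1 to neuron.9, oligo, astro, micro, endo, fibro, epend.1 and epend.2, and below them 34 numbered subclusters. Some contents went against a label. Of the 405 nuclei called micro, 108 had a second deposited label of microglia. Subcluster 18 within micro carried the neuronal gene Rbfox3 (429 CPM) and Slc17a6 (171 CPM), a gene of glutamatergic neurons, with Cx3cr1 at 19.7 CPM. Subcluster 32 within epend.1 carried Pdgfra (791 CPM) and Vcan (1049 CPM), markers of oligodendrocyte precursors. Neuronal nuclei are therefore compared below with those non-neuronal nuclei whose 2 deposited labels agree (2725 in WT, 3244 in HET), while values of a cluster or subcluster hold all its nuclei.

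Over all nuclei, Grik1 stood at 260.1 CPM in WT and 354 in HET, and Grik2 at 1111 and 1264. Grik3 stood at 51.0 and 71.1 CPM, Grik4 at 168 and 149.7, and Grik5 at 60.7 and 48.3. Grid1 stood at 433 and 446 CPM. Levels were compared between genes only per length. Whether reads from introns were counted is not given in the sources used here, and the values per length depend on it. Per 100 kb of gene, Grik2 stood at 160.1 CPM in WT and 182 in HET, while Grik5, short and low in plain CPM, stood at 97.1 and 77.3, which placed it next after Grik2 in WT and after Grik2 and Grik1 in HET. Grik1 stood at 66.0 and 89.7 CPM per 100 kb, Grid1 at 56.7 and 58.4, Grik4 at 39.5 and 35.1 and Grik3 at 22.8 and 31.8.

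Most neuronal nuclei carried several of these genes at once. Of the 6118 neuronal WT nuclei, 93.0% had a UMI of Grik2 (92.4% to 93.6%, exact binomial), 85.3% of Grid1, 65.1% of Grik4, 49.7% of Grik1, 42.8% of Grik5 and 28.7% of Grik3. In the 5393 neuronal HET nuclei the shares were 95.7%, 87.8%, 63.7%, 57.1%, 37.8% and 37.0%. A count of 4 members was the most frequent, in 29.0% of WT and 31.3% of HET neuronal nuclei, and none was seen in 1.01% and 0.297%. These shares follow depth, with medians of 7729 and 8390 UMIs in neuronal nuclei against 2750 and 2910.5 in non-neuronal ones. With every nucleus thinned to 1000 UMIs, Grik2 was seen in 58.1% of WT and 63.7% of HET neuronal nuclei and in 41.7% and 49.2% of non-neuronal nuclei. Grik3 was seen in 5.47% and 7.41% of thinned neuronal nuclei and in 0.658% and 1.32% of thinned non-neuronal nuclei, the widest relative gap of the 6 in either library. The neuronal marker Rbfox3, which non-neuronal cells should lack, was at 1.74% and 3.42% in the thinned non-neuronal nuclei. The Grik3 share there was below that of Rbfox3, but Rbfox3 was also more frequent in thinned neuronal nuclei, at 18.3% and 24.6%. The Grik3 share is not read as expression, and the part of free RNA in it was not tested.

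**Figure D1:**
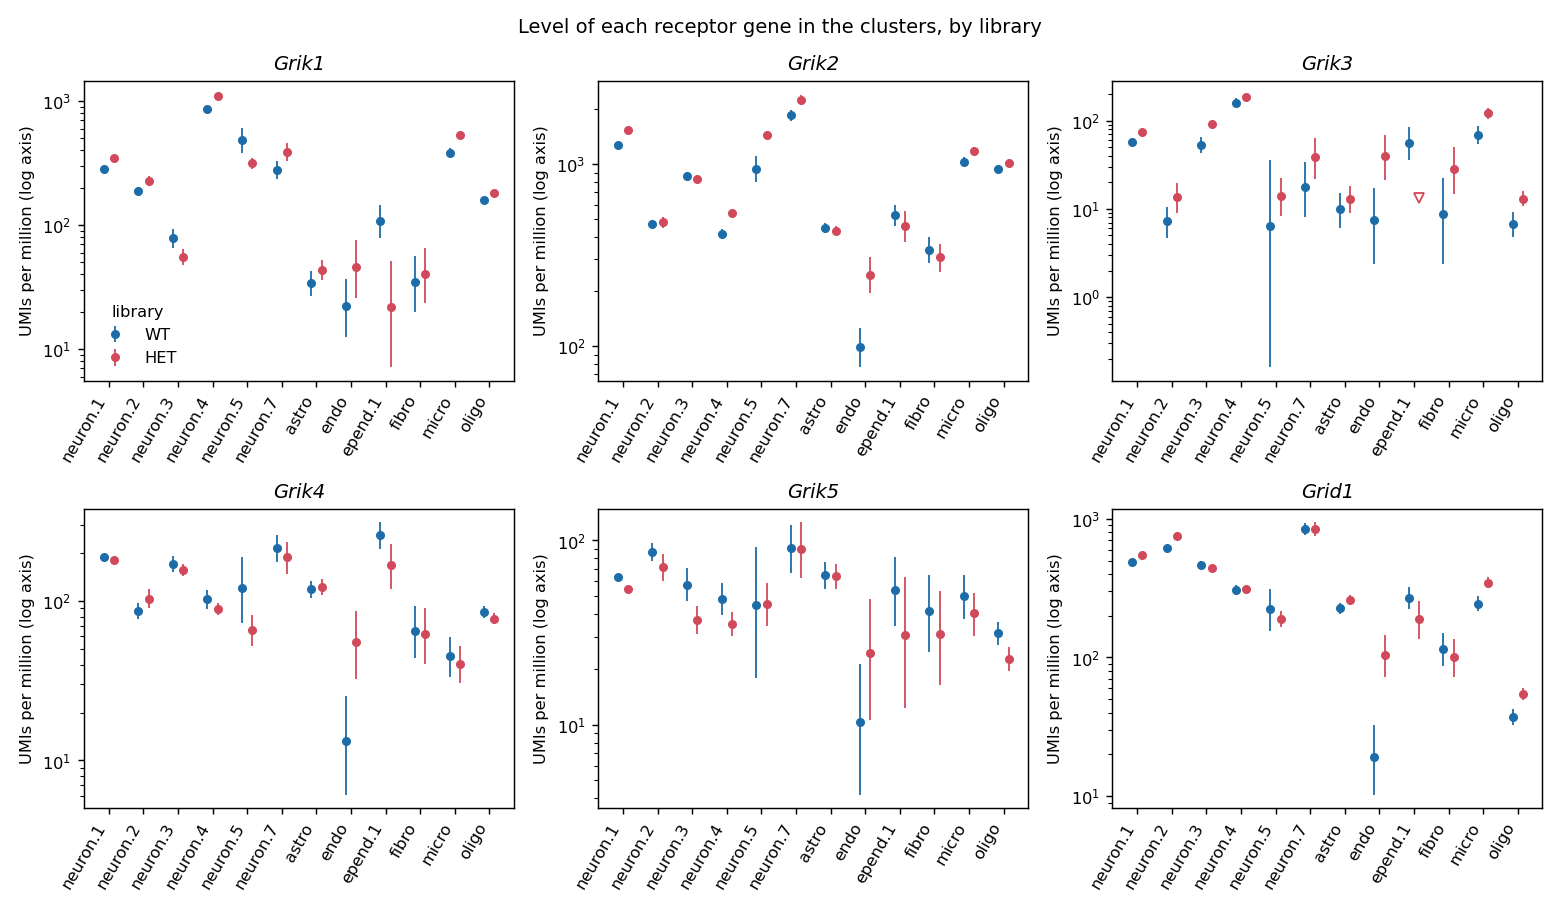
Level of each gene in the 12 clusters that WT and HET both filled with 30 nuclei or more. The vertical axis is CPM on a log scale, blue points are the WT and red points the HET library, bars are 95% Poisson intervals of counting error, and an open triangle is the level that 3 UMIs would give where none was counted. Grik1 peaked in neuron.4 (871 CPM in WT, 1099 in HET), Grik2 and Grid1 in neuron.7 (1854 and 2257, 843 and 845), and Grid1 was lowest in endo in WT and in oligo in HET.

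The low-affinity subunits each had their own site of highest level, and the sites were the same in both libraries. Grik1 was highest in subcluster 24 of neuron.1, at 1529 CPM in WT (1444 to 1618, 73 nuclei) and 1540 in HET (1433 to 1653, 46 nuclei). That subcluster carried Slc6a5, the glycine transporter of glycinergic neurons, at 163 CPM and the GABA enzyme gene Gad2 at 137 CPM, and Slc17a6 at only 9.34 CPM. Next stood subcluster 11, which takes in neuron.4, at 871 CPM in WT and 1099 in HET, with Slc17a7, the vesicular glutamate transporter, at 125 CPM. The intervals of these 2 subclusters lay apart in each library, and subcluster 18 followed at 583 and 797 CPM. The median over subclusters of 30 nuclei or more was 121 CPM in WT (32 subclusters) and 135 in HET (30 subclusters).

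Grik2 was more even than Grik1. It was highest in subcluster 9 of neuron.1, at 2536 CPM in WT (2484 to 2589, 436 nuclei) and 2655 in HET (2595 to 2716, 311 nuclei), again with Slc6a5 (167 CPM) and Slc32a1, the vesicular GABA and glycine transporter (80.0 CPM). Subcluster 30, which is neuron.7 and carried the serotonin genes Tph2 (1298 CPM) and Slc6a4 (709 CPM), came second at 1854 CPM in WT and 2257 in HET. The median subcluster stood at 873 and 982 CPM. The lowest of the 32 was endothelial subcluster 17 in WT, at 97.7 CPM.

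Grik3 was highest in subcluster 11, at 160.03 CPM in WT and 185 in HET, where Grik1 took second place. In WT its interval overlapped with that of the precursor-like subcluster 32 (157 CPM from 16 UMIs in 47 nuclei) and subcluster 32 with that of subcluster 22 (118 CPM), which takes in neuron.6. These could not be placed in HET, with 3 and 5 nuclei. Subcluster 18 stood at 112 CPM in WT and 176 in HET, and the median subcluster at 18.2 and 26.3 CPM. Grik3 had no UMI in the 39 WT nuclei of subcluster 6 or the 42 HET nuclei of subcluster 23, which allows up to 31.5 CPM and 13.6 CPM with 3 UMIs taken as the limit of a count of 0.

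Of the high-affinity subunits, Grik4 was highest in WT in subcluster 32 (413 CPM, 298 to 558, 42 UMIs), then in subcluster 31 of neuron.8 (281 CPM), which carried Slc5a7 and Chat, genes of cholinergic neurons, and in subcluster 22 (257 CPM). Each interval overlapped with that of the next. In HET these groups held fewer than 30 nuclei, and the highest was astrocyte subcluster 19 (226 CPM, 169 to 295), which carried Gfap at 1451 CPM and in WT stood at 157 CPM. Grik4 was near its lowest in subcluster 18 (29.9 and 21.5 CPM), where Grik1 and Grik3 were high. Grik5 was highest in subcluster 12 of neuron.2, at 106 CPM in WT (91.1 to 122) and 92.0 in HET (73.2 to 114). Among its 8 highest subclusters in either library each interval overlapped with that of the next. Its second place was subcluster 30 in both libraries (90.6 and 90.2 CPM), which was also among the 5 highest for Grik4.

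Grid1 had the sharpest split of the 6 between neurons and oligodendrocytes. It was highest in subcluster 30, at 843 CPM in WT and 845 in HET, and in subcluster 12, at 797 CPM in WT and 1048 in HET, so the order of the 2 differed between libraries and their WT intervals overlapped. Subcluster 12 carried Slc17a6 at 138 CPM. Subclusters 0 and 1, the 2 largest of neuron.1, stood at 521 and 512 CPM in WT and at 569 and 615 in HET. Oligodendrocyte subcluster 2 stood at 29.4 CPM in WT and 37.3 in HET, and subcluster 6 in WT gave 1 UMI.

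**Figure D2:**
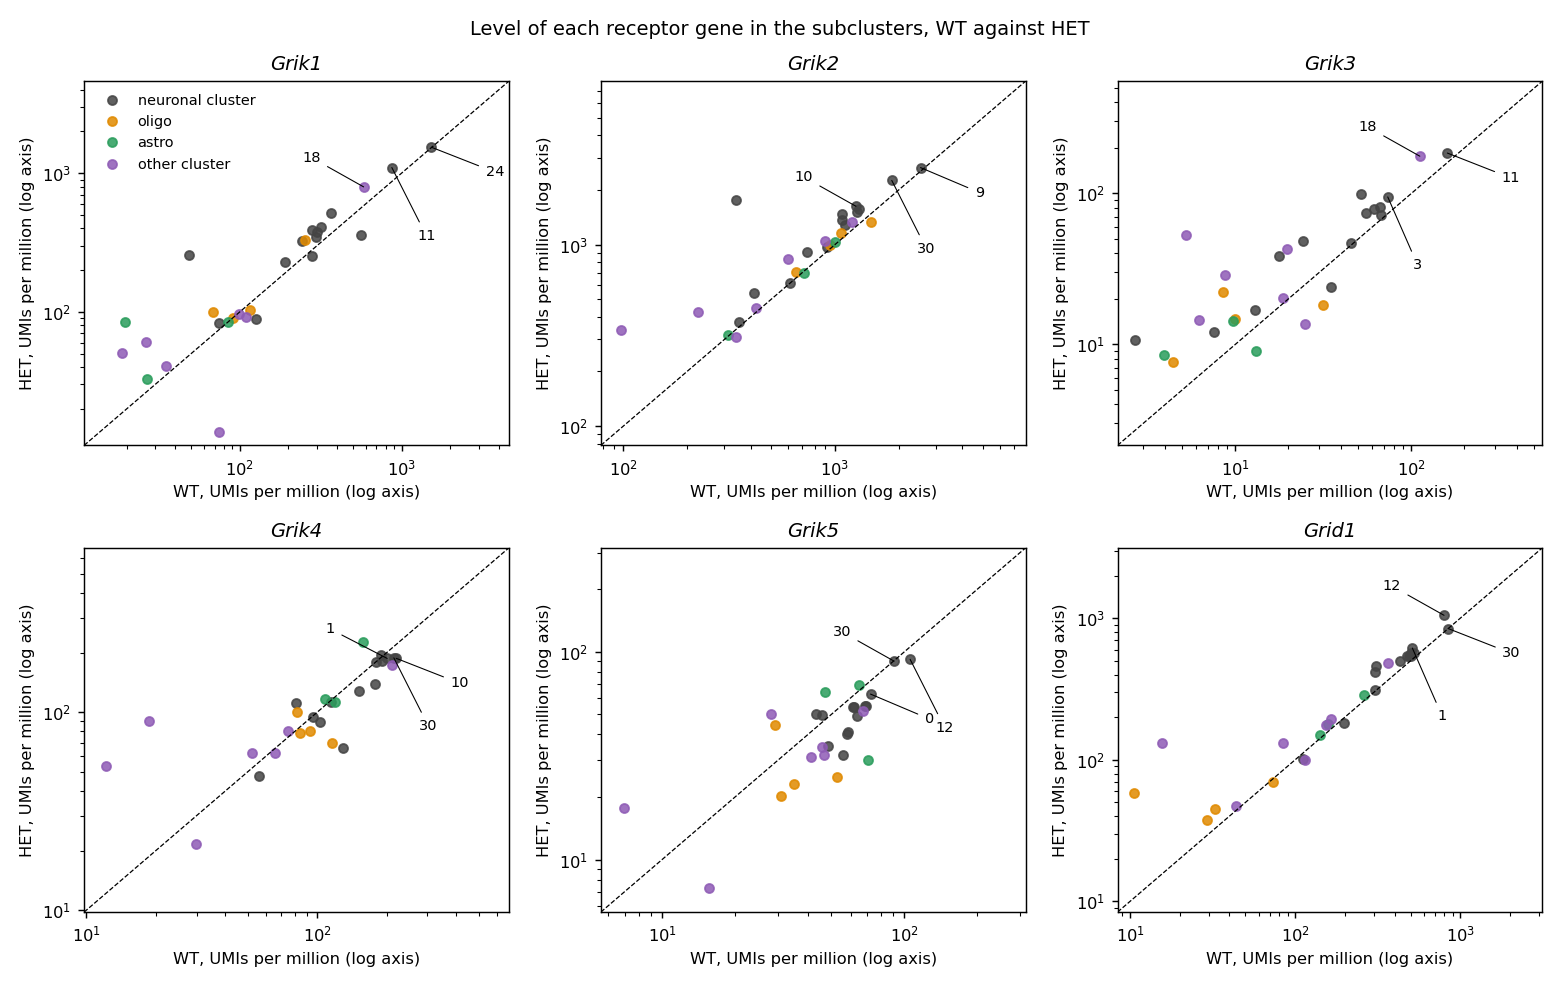
Level of each gene in the 28 subclusters with at least 30 nuclei in each library, WT on the horizontal and HET on the vertical axis, both in CPM on log scales. Points are subclusters coloured by cluster kind, a value of 0 is drawn at the level of 3 UMIs, numbers with lines name the 3 highest by mean, and the dashed line marks equal levels. Grik1 and Grid1 lie along the line over the widest range, with subclusters 24 and 11 at the top for Grik1 and 30 and 12 for Grid1; Grik2 in neurons lies mostly above it.

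The order of subclusters was close between the libraries for most members. Over the 28 subclusters the WT and HET levels (log scale) had a Pearson correlation of 0.92 for Grid1, 0.86 for Grik1, 0.85 for Grik2, 0.76 for Grik4, 0.73 for Grik5 and 0.62 for Grik3. The points share their libraries and differ in depth, and the members with the fewest UMIs, Grik3 and Grik5, gave the lowest values. The same subcluster came first in both libraries for Grik1, Grik2, Grik3 and Grik5. The clusters themselves were built from these counts, so the differences between them are a description.

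All 6 genes were higher in neuronal than in non-neuronal nuclei, but by very different amounts. For Grik3 the log2 ratio of neuronal over non-neuronal CPM was 2.95 in WT (2.603 to 3.32) and 2.65 in HET (2.41 to 2.90), from 57.5 against 7.44 CPM in WT. For Grid1 it was 2.69 and 2.33, for Grik1 1.35 and 1.47 and for Grik4 1.05 and 0.93. For Grik5 it was 0.80 and 0.68 and for Grik2 0.72 and 0.69. All 6 were thus past a log2 ratio of 0.5 in both libraries, a bar that 30.8% of all genes passed in WT and 32.5% in HET. With every nucleus of the non-neuronal clusters counted, the Grik3 ratios were 1.87 and 1.67. Neuronal genes set the background of free RNA. Rbfox3 had 6.999% of its neuronal CPM in non-neuronal WT nuclei and 12.4% in HET, and Snap25, a synaptic vesicle fusion gene, 19.99% and 20.3%. Grik3 (12.9% and 16.0%) and Grid1 (15.5% and 19.8%) lay within that range, whereas Grik2 (60.5% and 62.0%), Grik5 (57.6% and 62.5%), Grik4 (48.2% and 52.3%) and Grik1 (39.3% and 36.2%) lay above both. The transporter genes Slc17a6 (58.8% and 47.8%) and Slc32a1 (76.7% and 88.7%) stood as high as or higher than most members. The part of free RNA in the members' values was not tested.

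Glial types differed in which subunit they carried. Oligodendrocytes held Grik2 at 79.3% of the neuronal CPM in WT (937 CPM) and 74.9% in HET (1019 CPM), and Grik1 at 55.7% and 46.2%, but Grid1 at only 7.26% and 10.3%. Astrocytes showed the reverse for Grik1 and Grid1, with Grik1 at 11.04% and 11.1% and Grid1 at 46.5% and 50.4%. Astrocytes also held Grik5 at 102.9% of the neuronal CPM in WT (66.4 CPM) and 122.6% in HET (63.7 CPM) and Grik4 at 65.8% and 74.4%. The log2 ratio of neurons over astrocytes for Grik5 was −0.04 in WT (−0.29 to 0.22), within counting error, and −0.29 in HET (−0.52 to −0.06). Rbfox3 stood at 6.57% and 10.7% in the same astrocytes and at 6.83% and 12.6% in the oligodendrocytes. Snap25 stood at 19.7% and 18.7% in the astrocytes and at 20.6% and 20.7% in the oligodendrocytes. The transporter genes stood higher. Slc17a6 was at 60.8% and 45.6% in astrocytes and at 56.6% and 48.8% in oligodendrocytes. Slc32a1 was at 71.0% and 90.3% in astrocytes and at 78.4% and 90.7% in oligodendrocytes. The part of free RNA in these glial values was not tested.

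Within oligodendrocytes Grik1 was highest in 1 subcluster. In subcluster 2 it stood at 253 CPM in WT (234 to 272, 768 nuclei) and 332 in HET (311 to 354, 789 nuclei). In subcluster 7 it stood at 91.3 (72.7 to 113) and 90.7 CPM (80.3 to 102), in subcluster 6, mostly HET nuclei, at 103 CPM in HET, and in subcluster 8, mostly WT nuclei, at 68.1 CPM in WT. Grik2 ran the other way, at 656 and 703 CPM in subcluster 2 against 1476 and 1330 in subcluster 7. All 4 carried the myelin gene Mog at a like level (806 to 1014 CPM), and subcluster 2 alone was high in Enpp6, a gene of newly formed oligodendrocytes, at 453 CPM against 73.1 to 99.3 in the others. Enpp6 was looked up after these values were seen.

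Neurons were also divided by transmitter, by the summed UMIs of the vesicular glutamate transporter genes and of the GABA and glycine genes. A nucleus was placed in a class when that class had 5 UMIs or more and exceeded the other 5-fold. This gave 134 glutamatergic and 1107 inhibitory WT nuclei, and 225 and 785 HET nuclei. Grik2 was lower in the glutamatergic nuclei, at 899 against 1366 CPM in WT and 887 against 1547 in HET, log2 ratios of −0.60 (−0.66 to −0.55) and −0.80 (−0.85 to −0.75). A ratio of −0.5 or lower was seen for 9.22% of all genes in WT and 5.85% in HET, and Grik2 was the only member past it. Grik1 was higher in glutamatergic nuclei, at 403 against 287 CPM in WT and 441 against 325 in HET (0.49 and 0.44), short of the 0.5 that 3.3% of genes passed in WT and 3.64% in HET. Grik3 (0.28 and 0.18), Grik4 (−0.08 and −0.21), Grik5 (−0.19 and −0.10) and Grid1 (0.27 and −0.09) lay nearer to 0.

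These contrasts depended on which clusters supplied the nuclei. Within neuron.1 alone, with 78 and 125 glutamatergic nuclei, Grik2 was still lower in them, at log2 −0.32 in WT and −0.61 in HET. Grik1 turned to −0.09 (−0.23 to 0.05) in WT and −0.46 (−0.59 to −0.33) in HET, and Grik3 to −0.93 in both libraries. Neuron.4, where both genes were high, supplied 31 of the glutamatergic WT nuclei and 56 of the HET ones and 0 and 1 of the inhibitory ones. Grid1 within neuron.1 stood at 712 against 500.5 CPM in WT (0.51, 0.42 to 0.60) and 692 against 561 in HET (0.30, 0.22 to 0.38), higher in the glutamatergic nuclei of both libraries.

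**Figure D3:**
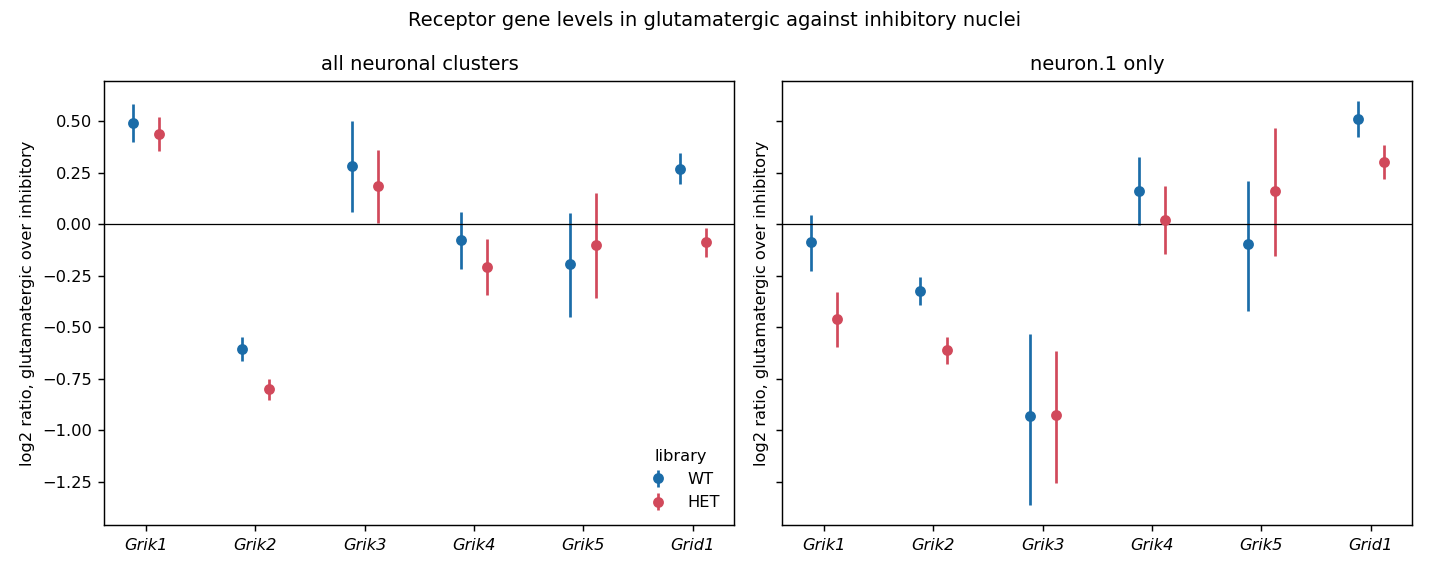
Log2 ratio of the level in glutamatergic over inhibitory nuclei for each gene, over all neuronal clusters (left) and within neuron.1 (right). Blue points are the WT and red points the HET library, and bars are 95% exact conditional binomial intervals of counting error. Grik2 is below 0 in all 4 settings, from −0.32 to −0.80, while Grik1 and Grik3 are above 0 on the left and below 0 on the right.

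The high-affinity subunits were read almost only beside a low-affinity one, but so was nearly every neuronal nucleus. Of the neuronal nuclei with a UMI of Grik4 or Grik5, 97.1% in WT (96.5% to 97.5%, 4600 of 4739) and 98.6% in HET (98.2% to 99.0%, 3969 of 4024) also had a UMI of Grik1, Grik2 or Grik3. The share over all neuronal nuclei was 95.4% and 97.9%. Thinned to 1000 UMIs, the shares were 68.0% and 74.6% in the positive nuclei and 66.7% and 74.1% in all, so the shares stood close, and the positive nuclei are part of the whole.

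Between genotypes no member passed a log2 ratio of 0.5 in either direction over all nuclei, a bar that 7.87% of the 16347 genes with at least 200 UMIs passed upward and 16.8% downward. Grik3 (51.0 CPM in WT, 71.1 in HET) had a log2 ratio of HET over WT of 0.48 (0.42 to 0.54), and Grik1 (260.1 and 354) of 0.44 (0.42 to 0.47). Grik2 followed at 0.19 (0.17 to 0.20) and Grid1 at 0.04 (0.02 to 0.07). The high-affinity subunits were lower in HET, Grik4 at −0.17 (−0.21 to −0.13) and Grik5 at −0.33 (−0.40 to −0.26). The median of the 6 was 0.12, while the median of all genes was −0.10. Relative to that median Grik1 stood at 0.55 and Grik3 at 0.58, but the share of all genes past 0.5 on that scale was not counted. The median of genes of 200 to 400 kb, the length class of Grik1 and Grik3, was 0.13. The clusters made up different shares of the 2 libraries. Neuron.4, in which Grik1 and Grik3 peak, held 114 WT and 339 HET nuclei, and without it Grik1 stood at 0.27 and Grik3 at 0.36. With each cluster given equal weight in both libraries, Grik1 stood at 0.29, Grik2 at 0.24, Grik3 at 0.41, Grik4 at −0.07, Grik5 at −0.25 and Grid1 at 0.17.

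The ratio of HET over WT moved with gene length across the whole table, and the members have to be read against it. The median was −0.36 for the 3931 genes under 10 kb, −0.02 for those of 50 to 100 kb, 0.13 for those of 200 to 400 kb and 0.14 for the 363 genes over 400 kb. Grik1 and Grik3 stood above the upper quartile of their length class (0.25). Grik2 stood within the quartiles of its class (0.050 to 0.25), and Grid1, at 0.04, just under them. Grik4, at −0.17, lay below the lower quartile for genes over 400 kb (0.050). Grik5, the only short member, lay below the lower quartile of its class (−0.17). Whether the trend with length belongs to the genotype or to the libraries cannot be told apart with 1 library each.

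**Figure D4:**
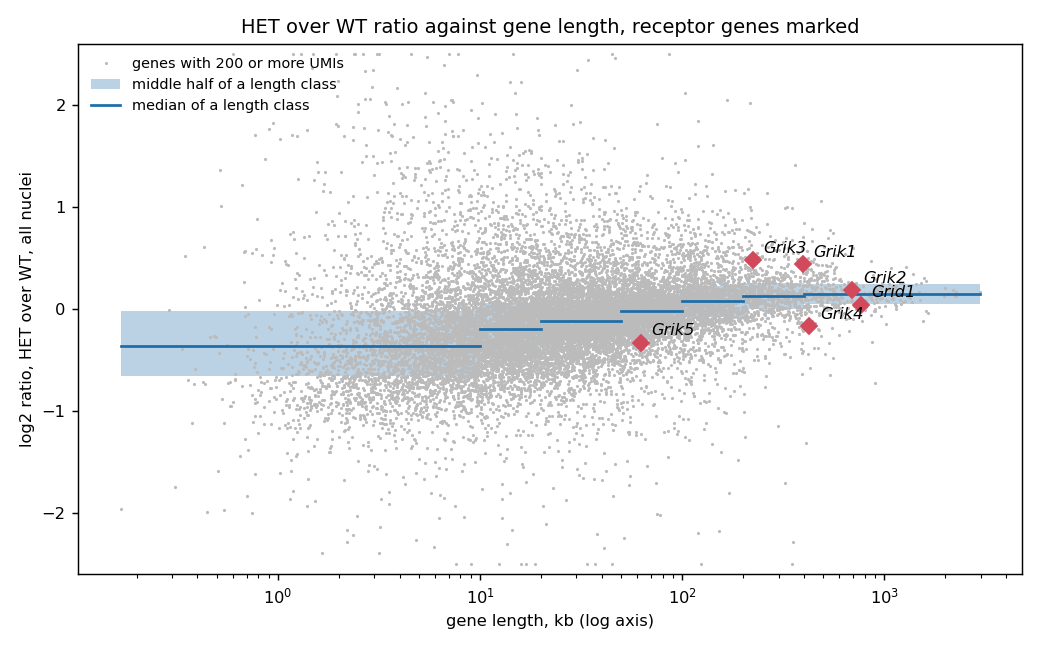
Log2 ratio of HET over WT over all nuclei against gene length in kb on a log axis. Grey points are genes with at least 200 UMIs (drawn at the edge beyond 2.5), blue lines and bands are the median and quartiles of a length class, and red diamonds are the 6 receptor genes. The class medians climb from −0.36 for the shortest to 0.14 for the longest genes, with Grik3 and Grik1 above and Grik4 and Grik5 below the band of their class.

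Within the largest neuronal cluster, neuron.1 (5032 WT and 4079 HET nuclei), each member had the same sign of ratio as over all nuclei. Grik1 stood at 281 CPM in WT and 349 in HET, a log2 ratio of 0.31 (0.28 to 0.35). Grik2 stood at 1281 and 1545 (0.27, 0.25 to 0.29), Grik3 at 56.7 and 74.4 (0.39, 0.32 to 0.47) and Grid1 at 487 and 552 (0.18, 0.15 to 0.21). Grik4 stood at 189.6 and 182 (−0.06, −0.11 to −0.02) and Grik5 at 63.7 and 54.4 (−0.23, −0.31 to −0.15). None was past 0.5, against 11.7% of genes upward and 17.9% downward in this cluster, whose median was −0.09.

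The direction of each member was also read over subclusters of neurons, which are parts of the same 2 libraries and no replicates. Of the 7 subclusters of neuron.1, Grik2, Grik3 and Grid1 were higher in HET in 7, with the interval above 0 in 7, 5 and 7 of them. Grik1 was higher in 6 and lower in subcluster 5 (−0.14, −0.25 to −0.04). Over all genes with enough UMIs in each, 13.5% were above 0 in all 7, and among those of 200 kb or more 36%; above 0 in at least 6 were 23.3% and 60.8%. Grik4 was below 0 in 6 of the 7 and Grik5 in 6. Being below 0 in at least 6 was seen for 41.4% of all genes but for 4.74% of the genes of 200 kb or more, the class of Grik4. Over the 14 neuronal subclusters, Grik2 was above 0 in 14, with 11 intervals above 0, a pattern of 5.49% of all genes and 13.7% of the long ones. The 14 include subcluster 21, in which neuron.5 made up unlike shares of the WT and HET nuclei. Grid1 was above 0 in 12, and at least 12 was seen for 20.2% of all genes and 51.1% of the long ones. Grik1 was above 0 in 11, with 9 intervals above 0 and 3 below it, the latter in subclusters 5, 13 (−0.50) and 15 (−0.64). Grik3 was above 0 in each of the 11 where it had enough UMIs, and no share over all genes was counted for this pattern. Among genes with enough UMIs in all 14, the median gene was above 0 in 6. The median long gene was above 0 in 12, and Grik1 and Grik3 are both of 200 kb or more. Grik4 and Grik5 were each below 0 in 12 of 14, with 5 and 6 intervals below 0. Being below 0 in at least 12 was seen for 27.7% of all genes and for 1.47% of the long ones, the class of Grik4 but not of Grik5.

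**Figure D5:**
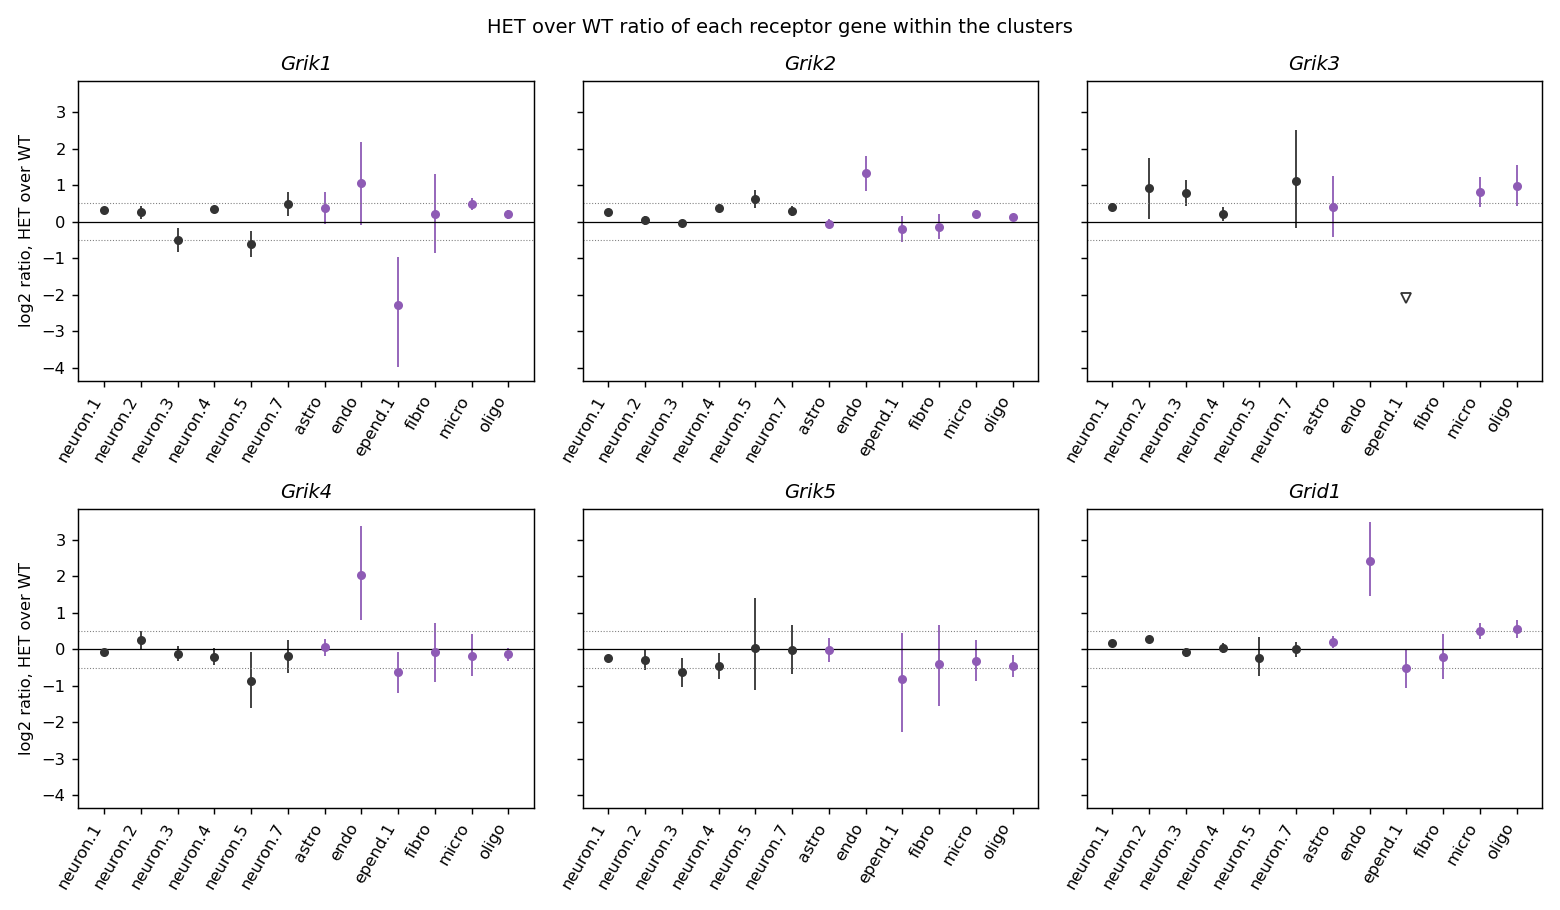
Log2 ratio of HET over WT for each gene within the 12 clusters, where the gene had at least 20 UMIs. Black points are neuronal and purple points non-neuronal clusters, bars are 95% exact conditional binomial intervals of counting error, dotted lines mark 0.5 and −0.5, and the open triangle is a bound from 24 WT and 0 HET UMIs. In neuron.1 Grik3 and Grik1 sit highest (0.39 and 0.31) and Grik5 lowest (−0.23); the points far from 0 are in endo and epend.1.

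Of the 68 pairs of a member and a cluster with enough UMIs, 12 were past 0.5 upward and 9 downward. Over all genes, the share past 0.5 upward was 11.7% in neuron.1, 8.98% in neuron.2, 13.9% in neuron.3, 12.9% in neuron.4, 25.2% in neuron.5 and 13.1% in neuron.7. In the other clusters it was 12.9% in oligo, 10.6% in astro, 12.4% in micro, 23% in endo, 16.1% in fibro and 17.4% in epend.1. Downward it was 17.9%, 21.4%, 18.7%, 18.4%, 22.7% and 23.3% in the same neuronal clusters, and 19.6%, 22.7%, 19.8%, 29.9%, 21.3% and 32.4% in the same others, and the counts of 12 and 9 pairs are to be read against these shares. Grik3 supplied 5 of the 12. In neuron.3 it stood at 53.4 CPM in WT and 91.9 in HET (0.78, 0.44 to 1.14), beside 13.9% of genes past the bar, and in neuron.2 at 7.23 and 13.6 (0.91, 0.08 to 1.75, 26 and 27 UMIs), beside 8.98%. In neuron.7 it stood at 17.7 and 38.6 CPM (1.12, −0.16 to 2.498), beside 13.1%. In oligo it stood at 6.67 and 13.1 CPM (0.97, 0.42 to 1.54), beside 12.9%, and Grid1 at 37.1 and 54.8 (0.56, 0.32 to 0.80). Oligodendrocyte subclusters 6 (39 WT and 827 HET nuclei) and 8 (825 and 35) were split by library. In subcluster 2 Grik3 stood at 0.80 (−0.28 to 1.94) and Grid1 at 0.34 (−0.09 to 0.78). In subcluster 7 they stood at 0.57 (−0.49 to 1.79) and −0.08 (−0.48 to 0.34). The intervals of both genes included 0 in subclusters 6 and 8 also. Rbfox3 was higher in the HET oligo nuclei by 1.35 and Snap25 by 0.27, Slc17a6 stood at −0.03 and Slc32a1 at −0.56. The part of neuronal RNA in the oligo values was not tested. In micro, Grik3 stood at 68.8 and 121 CPM (0.81) and Grid1 at 244 and 346 (0.50), beside 12.4%, and most of this came from the neuron-like subcluster 18, with 71 of the 76 Grik3 UMIs in WT. The nuclei that both labels call microglia held 1 UMI of Grik3 in WT and 3 in HET.

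Other pairs past 0.5 lay in neuron.3 and neuron.5, where Grik1 ran against its direction in neuron.1. In neuron.3 Grik1 was lower in HET, at 78.9 and 55.5 CPM (−0.51, −0.83 to −0.18), and so was Grik5 (−0.63), beside 18.7% of genes past −0.5. In neuron.5, which held 42 WT and 332 HET nuclei and carried the granule cell gene Gabra6, Grik1 stood at 483 and 314 CPM (−0.62) and Grik4 at 121 and 65.8 (−0.88), beside 22.7%, while Grik2 stood at 947 and 1451 (0.62), beside 25.2%. Subcluster 21, of which 49 of 126 nuclei are in neuron.5, gave the widest ratios of any neuronal subcluster, with Grik1 at 48.7 and 257 CPM (2.40, 7 and 97 UMIs) and Grik2 at 341 and 1760 (2.37, 49 and 664 UMIs). Subclusters 15 (33 WT and 249 HET nuclei) and 33 (6 and 37) lay wholly in neuron.5 and held nearly all its WT nuclei. Most of the 56 WT nuclei of subcluster 21 therefore lay in other clusters. A larger part of its 70 HET nuclei came from neuron.5, so the ratios of subcluster 21 compare unlike nuclei. In this subcluster 43.7% of genes were past 0.5 upward, and it carried Gabra6 (203 CPM) together with the myelin gene Mobp (480 CPM). In neuron.4 Grik5 was at −0.46 (−0.82 to −0.09) and in oligo at −0.46 (−0.77 to −0.16).

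The vascular and ependymal clusters gave the widest ratios from the fewest molecules. In endo Grik2 stood at 99.1 and 248 CPM (1.32), Grik4 at 13.3 and 55.0 (2.05, 9 and 18 UMIs), Grid1 at 19.2 and 103.9 (2.43, 13 and 34 UMIs) and Grik1 at 22.2 and 45.8 (1.05, −0.09 to 2.18), so all 4 with enough UMIs were past 0.5, beside 23% of genes. In the same cluster Rbfox3 was higher in HET by 1.51, Snap25 by 0.52 and Meg3, an RNA abundant in neurons, by 1.19. Slc17a6 stood at −0.13 and Slc32a1 at −1.41 (22 and 4 UMIs). Both labels named endothelial cells in 161 of the 222 WT and 48 of the 122 HET endo nuclei. In these, Grik2 stood at 1.75 (0.80 to 2.69) and Grid1 at 2.66 (1.20 to 4.25, 7 and 12 UMIs). Grik4 stood there at 1.88 (−1.02 to 4.78, 3 and 3 UMIs) and Grik1 at 1.04 (−0.89 to 2.77, 9 and 5 UMIs). The part of neuronal RNA in the endo values was not tested. In epend.1 Grik1 stood at 108 and 22.0 CPM (−2.30), Grik4 at 259 and 167 (−0.63), Grik5 at 54.1 and 30.8 (−0.81, −2.28 to 0.46) and Grid1 at 271 and 189.3 (−0.52, −1.06 to 0.002), beside 32.4% of genes. Grik3 had 24 UMIs in WT and 0 in HET, a ratio at least 2.10 lower on the log2 scale with 3 UMIs taken as the floor of the HET cluster. The precursor-like subcluster 32, in which Grik3 and Grik4 were high, added 47 WT and 3 HET nuclei to epend.1. In subcluster 23, without these, Grik4 stood at 210.3 and 173 CPM (−0.28, −0.90 to 0.31) and Grid1 at 155 and 177 (0.20). Grik1 kept its ratio there, at 74.2 and 13.6 CPM (−2.45, −4.82 to −0.73, 24 and 3 UMIs), and Grik5 stood at 46.4 and 31.8 CPM (−0.54, −2.08 to 0.84).

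Proteins that act with these receptors were read as a list of 22 genes, of which 21 were in the table. It holds the auxiliary subunits Neto1 and Neto2, the secreted cerebellins and C1q-like ligands, the scaffolds Dlg1, Dlg3, Dlg4, Grip1, Grip2, Pick1 and Gopc, the Klhl24 adaptor, and the RNA editing enzymes Adar, Adarb1 and Adarb2. In this list 1 gene was past 0.5 upward and 4 downward, beside 12.8% and 19.1% of the genes with at least 20 UMIs, and its median was −0.04 against −0.09 for those genes.

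Among auxiliary subunits, Neto1, which slows kainate receptor currents, stood at 80.4 CPM in WT and 107 in HET (0.41, 0.36 to 0.46), and at 0.35 in neuron.1. Its highest subcluster was 11, at 276 CPM, where Grik1 and Grik3 were high, and then 9, where Grik2 peaked. Neto2 stood at 76.7 and 79.9 CPM (0.06).

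Of the ligands, Cbln3, a cerebellin of cerebellar granule cells, had 46 UMIs in WT and 241 in HET (2.48, 2.02 to 2.96). Its highest subcluster was 15, which carried Gabra6 and held 33 WT and 249 HET nuclei, and in neuron.1 Cbln3 stood at 2.20 (16 and 62 UMIs). Cbln1, whose protein bridges delta receptors and neurexins, stood at 5.02 and 6.17 CPM (0.30), Cbln2 at 6.37 and 4.61 (−0.47) and Cbln4 at 5.79 and 5.59 (−0.05). C1ql2, a ligand of Grik2- and Grik4-containing receptors, stood at 90 and 28 UMIs (−1.60), C1ql3 at 26.9 and 16.6 CPM (−0.70) and C1ql1 at 10.8 and 5.85 CPM (−0.88). C1ql1 was highest in subclusters 32 (202 CPM) and 22 (120.4 CPM), which hold 47 and 121 WT but 3 and 5 HET nuclei; in neuron.1 it stood at −0.62 and C1ql2 at −1.69. C1ql4 had 51 and 46 UMIs (−0.06).

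The adaptor gene Klhl24, whose product binds GluK2, stood at 158 CPM in WT and 80.5 in HET (−0.97, −1.02 to −0.93), and at −1.02 in neuron.1. The scaffolds lay nearer to 0, with Dlg1 at 0.34, Dlg3 at 0.25, Dlg4 at −0.12, Grip1 and Grip2 at −0.04, Pick1 at −0.21 and Gopc at −0.01. Adarb1, the enzyme that edits the pore site of Grik1 and Grik2 mRNA, stood at 115 and 143 CPM (0.31), Adarb2 at 517 and 589 (0.19) and Adar at 90.1 and 86.1 (−0.06).

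The genes whose level over the 12 clusters was most like that of a member were found among 11648 genes with at least 1000 UMIs, by the Pearson correlation of log2(CPM + 1), averaged over the libraries. For Grid1 they were Gm26691 (0.94), Ppp2r2b (0.94) and Jakmip1 (0.94), and for Grik5 Reps1 (0.93), Dclk1 (0.92) and Nav3 (0.90). For Grik2 they were Tsc1 (0.89), Kif1a (0.84) and Heatr3 (0.83), and for Grik1 Slc8a1 (0.87), Fntb (0.85) and Ceacam2 (0.85). For Grik4 they were Morn4 (0.84), Gm45847 (0.84) and Smg5 (0.82), and for Grik3 Pdzd7 (0.83), Zbtb43 (0.81) and Mtif2 (0.78). No member was among the nearest 3 of another. Across subclusters the closest pair of members was Grik5 and Grid1, with a correlation of 0.75 over 32 subclusters in WT and 0.74 over 30 in HET, while Grik2 and Grik4 stood at 0.69 in WT and 0.13 in HET.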

How the data were processed

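Nuclei of 1 WT and 1 HET brainstem were sequenced in 10x Genomics droplet libraries. The authors deposited UMI counts per gene and nucleus, made with Cell Ranger on mm10 (version and intron counting not given in the sources used here), after filtering in Seurat 4.1 by genes detected and mitochondrial share and removal of mitochondrial and hemoglobin genes. The deposited doublet score, clusters and reference labels were used as given; all nuclei are listed as singlets by a caller that is not named, and 23 barcodes occur in both libraries. UMIs were summed by library and cluster (at least 30 nuclei in each library) and scaled to CPM. Ratios carry exact conditional binomial intervals, levels Poisson and shares Clopper-Pearson intervals, at 95%, for counting error only. A ratio was called past 0.5 (log2) with at least 200 UMIs over all nuclei or 20 within a cluster. Thinning took 1000 UMIs a nucleus. Gene positions and coding sequences are from GENCODE vM21; MAFFT 7.526 aligned them by codon. Scripts (Python 3.11.15, scipy 1.17.1) were tested on simulated data. The members and lists were chosen with earlier results of these data known; named genes are the members, the partner list and, per member, the 3 genes most like it. Klhl17 of the partner list was not analysed here. Some entries of that list are not reported here and are left out of its counts and median.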

Additional observations from a re-analysis of the deposited data

Results flagged for a closer look

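The genotype ratio of 2 members was past 0.5 in opposite directions in different clusters, each with an interval clear of 0. The difference between clusters was not tested, and the share of all genes with such opposite ratios was not counted. Within single clusters 8.98% to 25.2% of all genes were past 0.5 upward and 17.9% to 32.4% downward, so the pattern is not read as particular to these members. Grik3 was higher in HET in micro (log2 0.81), neuron.2 (0.91), neuron.3 (0.78) and oligo (0.97), and lower in epend.1 (−2.10 or lower, from 24 and 0 UMIs). Grik4 was higher in HET in endo (2.05) and lower in epend.1 (−0.63) and neuron.5 (−0.88). Its UMIs in WT and HET were 9 and 18, 110 and 38, and 19 and 84 there. In the endo nuclei that both labels call endothelial, Grik4 had 3 UMIs in WT and 3 in HET (1.88, −1.02 to 4.78). The Grik3 value in micro came mostly from the neuron-like subcluster 18, with 71 of the 76 UMIs in WT. Within oligodendrocyte subclusters 2 and 7 the Grik3 ratios were 0.80 (−0.28 to 1.94) and 0.57 (−0.49 to 1.79). The epend.1 values rest in part on the precursor-like subcluster 32 (47 WT and 3 HET nuclei), which held 16 of the 24 Grik3 UMIs in WT. In subcluster 23 alone, Grik4 stood at −0.28 (−0.90 to 0.31). Grik1 had intervals above 0 in 6 clusters, such as neuron.1 (0.31), and below 0 in 3, namely neuron.3 (−0.51), neuron.5 (−0.62) and epend.1 (−2.30), but none above 0 that was also past 0.5.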

How the results depend on the processing

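No paired analysis was possible because each genotype has 1 library and no test was run; for the same reason no library could be left out. The median log2 ratio of the 6 receptor genes (0.12) was 0.22 with the median of all genes set to 0, 0.21 with equal cluster weights, 0.14 without the 5% of nuclei with the highest doublet scores and 0.14 as a mean over nuclei. Chosen after seeing the data, equal subcluster weights gave 0.21 and leaving out neuron.4 gave 0.15. The 9 pairs past −0.5 within clusters, of 68 pairs in 12 clusters, were 4 of 49 pairs in 10 clusters in nuclei whose labels agree. Epend.1, which supplied 5 of the 9, had too few such nuclei to be compared, so the 2 counts cover different pairs. The median neuronal over non-neuronal ratio (1.20 in both libraries) was 1.06 in both with all nuclei of non-neuronal clusters. The partner list's median (−0.04) was 0.052 with the median of all genes set to 0 and 0.014 with equal cluster weights. The glutamatergic over inhibitory median in WT (0.095) turned to −0.094 in neuron.1, with Grik1 at −0.089 in WT and −0.46 in HET, Grik3 at −0.93 in both, and in HET Grik4 at 0.020 and Grid1 at 0.30. A split by single UMIs turned Grik3 to −0.34 in WT and −0.24 in HET. Thinned co-detection was 68.0% in WT and 74.6% in HET. Over all alternatives, 26 values of whole comparisons and 159 of single genes moved by less than their interval or 1.5 times. A further 13 of whole comparisons and 51 of single genes moved by more and were not counted as turned. Those counted as turned were 1 of whole comparisons and 8 of single genes. Rare members within small clusters (under 30 UMIs) are limited by depth.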
